A study of Homo sapiens with 24 samples.

Results

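The 9 genes CD14, CD36, CD68, CD163, MSR1, FCGR2A, FCGR2B, CHI3L1 and GPNMB encode surface receptors, a lysosomal glycoprotein and a secreted protein that mark monocytes and macrophages. They were taken by name from the 12165 genes measured, and all 9 were present. A probe set, the group of short array probes that reports a transcript, was used where the annotation gave it exactly 1 gene symbol. The 9 genes had 17 such probe sets, and where a gene had several, the brightest over the 24 arrays by its mean was used. The arrays were of the one-colour Affymetrix type, and the cells were 4 human lines of acute myeloid leukemia: HL-60 (promyelocytic), KG-1 (early myeloblastic), U937 (monocytic) and MOLM-14 (monocytic, with an MLL-AF9 fusion and a FLT3 internal tandem duplication). The 8 groups of 3 arrays held each line after 24 h with the solvent dimethyl sulfoxide (DMSO) or with 4 µM R406. R406, to which the drug fostamatinib is converted, inhibits the kinase SYK as well as other kinases. The series title names a leukemia dependence on integrin beta 3 signalling, and the comparison of R406 with DMSO shows how transcripts differed under the inhibitor.

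Macrophages recognise and take up microbes, lipoproteins, dying cells and antibody-coated particles through receptors of this kind. CD14 hands bacterial lipopolysaccharide to the TLR4 and LY96 complex. Scavenger receptors bind modified lipoproteins and cell debris, and Fc receptors bind the constant part of IgG. SYK acts directly below the activating Fc receptors, where it docks on a phosphorylated tyrosine motif (ITAM) of the receptor or of its adaptor chain FCER1G. FCGR2B carries the opposing inhibitory motif (ITIM), which recruits the phosphatase INPP5D. In myeloid leukemia cells, levels of such transcripts are commonly read as signs of how far the cells have moved along the monocytic path.

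Values are probe set intensities, which have no absolute unit and cannot be compared between genes. A log2 change is the mean log2 of (intensity plus 1) with R406 minus that with DMSO, ± the standard error (SE), from 3 against 3 arrays. The SE comes from 1 variance per gene that all 8 groups share in the limma model, so it is the same in each line. Adjusted p is the Benjamini-Hochberg value of that model over the 12165 genes, and rose, fell or called means that it was under 0.05. Whether a group's arrays came from separate cultures is not stated in the labels, so p measures only the spread between these samples, which may be technical. The number of arrays limits the precision. Array medians lay between 19.1 and 21.4. Of the arrays, KG-1 R406 replicate 2 stood apart most, with the lowest array weight, 0.220. As a gauge of signal without transcript, 23 genes of other tissues had intensities whose 5th and 95th percentiles were 5.31 and 32.0 (median 8.15). One of them, MBP, had a mean of 889 and was kept, which can raise the upper percentile. Where a group lies in that range its transcript is not shown above background, so a fold or log2 difference against it is one of probe set signals and not a measured difference of transcript levels. The labelled lines were checked by their markers. MPO was 6416 ± 114 (SD, n = 3) in HL-60 DMSO cells and at most 44.0 ± 3.68 in the others. ELANE, another granule gene, did not set HL-60 apart. Its DMSO levels were 2642 ± 227 in HL-60, 3034 ± 172 in MOLM-14, 2944 ± 95.2 in U937 and 9.18 ± 1.33 in KG-1. CD34 was 613 ± 103 in KG-1 DMSO cells and 17.0 to 18.1 in the others. CSF1R, the macrophage colony-stimulating factor receptor, lay between 13.4 and 19.0 in all 4 DMSO groups, which is within the gauge range for the monocytic lines too. ITGAM was highest in KG-1 DMSO cells (487 ± 20.5) and lower in U937 (80.1 ± 4.46) and MOLM-14 (66.2 ± 6.41). LYZ was not analysed here.

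**Figure D1:**
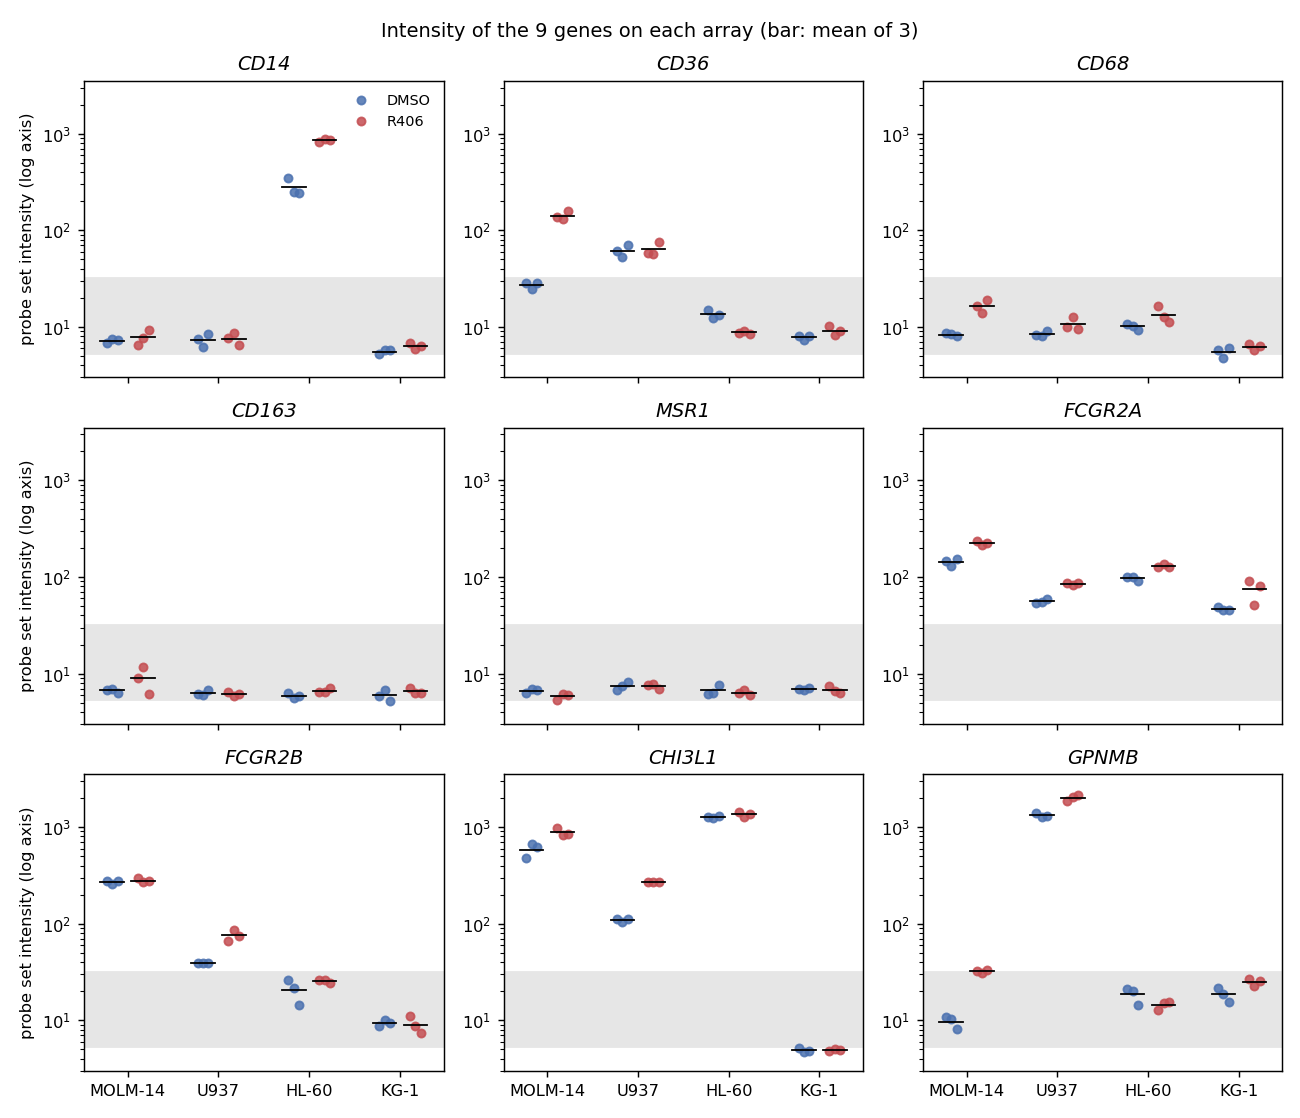
Probe set intensity (log axis, no unit) of each of the 9 genes on every array, for DMSO and R406 in each cell line; each point is 1 array, bars are means of 3 arrays, and the grey band spans 5.31 to 32.0, the 5th to 95th percentile of genes of other tissues. CD14 left the band in HL-60 only (279 in DMSO and 853 in R406), and CD68, CD163 and MSR1 lay in or below it in all lines.

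Starting levels of most members differed between the 4 lines, as did those of most genes. Over the DMSO groups, 7 of the 9 genes differed between lines (moderated F test), where 68.1% of all genes did. The exceptions were CD163 (adjusted p = 0.666) and MSR1 (adjusted p = 0.381). CD14 was high in HL-60 alone. GPNMB was high in U937 alone. FCGR2B was highest in MOLM-14, and CHI3L1 followed the order HL-60, MOLM-14, U937 and then KG-1. By pairs of lines, 5 members differed between MOLM-14 and U937 (47.0% of all genes), 6 between MOLM-14 and HL-60 (46.1%), 7 between MOLM-14 and KG-1 (51.2%), 6 between U937 and HL-60 (48.2%), 6 between U937 and KG-1 (50.9%) and 6 between HL-60 and KG-1 (48.7%).

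Stretches before a transcript start are shown for the 4 members that rose in at least 1 line and had a motif match there. For each, 1 start was listed. They are the RefSeq sequences of build GRCh38.p14, each a run of the 250 bases before the annotated transcript start, written 5′ to 3′ on the gene's strand with motif matches in capitals. GPNMB lies at chr7:23246525-23246774 (plus strand), CHI3L1 at chr1:203186705-203186954 (minus strand) and CD68 at chr17:7579388-7579637 (plus strand). For CD14 only the 30 bases around its match are given, chr5:140633380-140633409 (minus strand). The annotated CD14 gene reaches upstream of the start used, so this match may lie inside the gene.
GPNMB: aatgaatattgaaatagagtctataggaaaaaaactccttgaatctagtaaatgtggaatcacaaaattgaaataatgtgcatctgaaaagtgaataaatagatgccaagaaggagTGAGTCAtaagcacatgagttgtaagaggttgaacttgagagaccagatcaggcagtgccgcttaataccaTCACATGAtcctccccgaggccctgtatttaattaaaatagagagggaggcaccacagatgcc
CHI3L1: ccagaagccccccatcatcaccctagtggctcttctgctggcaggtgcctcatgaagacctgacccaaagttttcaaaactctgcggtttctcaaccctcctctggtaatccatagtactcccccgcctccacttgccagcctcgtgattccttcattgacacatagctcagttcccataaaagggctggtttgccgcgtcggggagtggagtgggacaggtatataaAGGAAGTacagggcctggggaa
CD68: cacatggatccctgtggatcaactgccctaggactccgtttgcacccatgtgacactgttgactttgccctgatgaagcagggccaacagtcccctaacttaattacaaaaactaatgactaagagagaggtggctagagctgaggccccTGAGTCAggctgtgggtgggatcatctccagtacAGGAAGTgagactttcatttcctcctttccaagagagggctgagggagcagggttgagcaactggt
CD14: cctggggcgccTGAGTCAtcaggacactgc

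Motifs were searched by exact letters on both strands in 14 windows of 8 members. MSR1 was not searched. The AP-1 motif TGANTCA, which reads the same on both strands, lay in 6.57% of 35116 windows of the same length in the table, the PU.1 motif AGGAAGT in 7.01%, the M-box TCATGTGA bound by MITF in 0.851% and the lysosomal (CLEAR) E-box TCACGTGA in 0.854%. No match of a motif overlapped a match of another in the printed stretches. GPNMB held an AP-1 match whose first base lay 134 bases before the start, and an M-box match on the minus strand 63 bases before it. CD68 held an AP-1 match 100 bases and a PU.1 match 66 bases before its start, CHI3L1 a PU.1 match 22 bases before, and CD14 an AP-1 match 223 bases before. FCGR2B and CD36 had an AP-1 match in 1 of 2 and 1 of 6 windows, 72 and 124 bases before that start. The windows of FCGR2A and CD163 held none of the letters searched. A match describes the letters alone.

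CD14, the co-receptor for lipopolysaccharide, rose in HL-60 cells and was at the level of genes of other tissues in the remaining lines. Its HL-60 intensities were 348, 249 and 241 on the DMSO arrays and 812, 883 and 864 on the R406 arrays. All R406 arrays lay above all DMSO arrays, and the means differed 3.05-fold. The log2 change was 1.63 ± 0.13 (adjusted p = 7.13e-09). In MOLM-14 the arrays read 6.76, 7.53 and 7.31 with DMSO and 6.47, 7.66 and 9.28 with R406. The U937 arrays read 7.50, 6.18 and 8.52 with DMSO and 7.71, 8.57 and 6.42 with R406. The KG-1 arrays read 5.26, 5.72 and 5.71 with DMSO and 6.86, 5.92 and 6.28 with R406. Arrays of the treatments overlapped in MOLM-14 and U937 and did not in KG-1. None of these 3 lines passed the test (0.09, adjusted p = 0.581, in MOLM-14, 0.03, adjusted p = 0.946, in U937 and 0.16, adjusted p = 0.355, in KG-1). The HL-60 change exceeded that of each other line, by 1.46 ± 0.18 against KG-1 (adjusted p = 1.31e-06), 1.54 against MOLM-14 and 1.60 against U937. In DMSO cells the HL-60 arrays lay above the gauge range and those of the other 3 lines in or just below it, so no size is given for the difference in level. The signals of MOLM-14 and U937 did not differ beyond their spread (-0.03 ± 0.13, adjusted p = 0.896).

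The partners of CD14 followed other patterns. LY96, the TLR4-bound protein that holds lipopolysaccharide, rose from 19.5 ± 4.34 to 136 ± 6.69 in MOLM-14 (2.77 ± 0.14, adjusted p = 8.18e-14), in U937 by 1.66 and in KG-1 by 1.08. In HL-60, the line where CD14 rose, LY96 went from 15.6 ± 2.11 to 20.6 ± 3.00 (0.38, adjusted p = 0.0703). TLR4 itself was 35.9 ± 1.66 and 36.0 ± 5.49 in HL-60, and was called in MOLM-14 alone, from 6.35 ± 0.16 to 9.47 ± 2.35 (0.49, adjusted p = 0.00854). Of 7 measured genes of the CD14 and TLR4 list, none was called in HL-60, where 15.2% of all genes were. LY96 was the only call higher in U937 and KG-1, LY96 and TLR4 were those in MOLM-14, and the kinase IRAK1 fell in MOLM-14 and KG-1. Granulocyte markers in HL-60, measured as another cell type of that lineage, had 5 of 17 genes higher and 4 lower. Of all genes, 7.19% were higher and 7.97% lower there. The summed intensities of these markers were 17493 to 18797 in DMSO and 17201 to 18885 in R406 cells. Their part in the CD14 result was not tested.

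CD36, a scavenger receptor for oxidised lipoprotein and a fatty acid transporter, rose in MOLM-14 and fell in HL-60. The MOLM-14 arrays read 28.4, 24.8 and 28.2 with DMSO and 136, 129.8 and 158 with R406. All R406 values lay above all DMSO values, with a log2 change in signal of 2.34 ± 0.11 (adjusted p = 3.83e-14). The DMSO arrays lay inside the gauge range, so this size is not a measured fold of transcript. In HL-60 the arrays read 14.8, 12.4 and 13.2 with DMSO and 8.75, 9.07 and 8.49 with R406. The HL-60 values did not overlap, at levels inside the range of the gauge genes, and the log2 change was -0.57 ± 0.11 (adjusted p = 0.00107). With a pseudocount of 16, which damps dim values, it was -0.25 (adjusted p = 0.0418). In U937 the arrays read 61.1, 52.5 and 71.0 with DMSO and 58.8, 57.0 and 75.5 with R406, which overlap (0.05, adjusted p = 0.878). In KG-1 they read 8.14, 7.35 and 7.97 with DMSO and 10.2, 8.18 and 9.11 with R406 (0.20, adjusted p = 0.166). The KG-1 R406 arrays all lay above the DMSO arrays, without passing the test. With the replicate number as a block the KG-1 change was called (adjusted p = 0.0454).

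The change of CD36 in MOLM-14 exceeded that in each other line, by 2.13 ± 0.16 against KG-1, 2.28 against U937 and 2.90 against HL-60 (adjusted p = 1.44e-12 for the last). The HL-60 change was also below that of U937 (by 0.62, adjusted p = 0.0172) and of KG-1 (by 0.77, adjusted p = 0.000488). Another CD36 probe set gave the same signs in MOLM-14 and HL-60, with means of 15.04 and 94.7 in MOLM-14 and of 8.74 and 6.59 in HL-60. In DMSO cells the CD36 signal had the order U937, MOLM-14, HL-60, KG-1, and each neighbour differed from the next (smallest step 0.71 ± 0.11, between HL-60 and KG-1), though only U937 lay above the gauge range. Platelets and endothelium also express CD36. Of 10 platelet and endothelial markers in MOLM-14, 3 rose (PECAM1, ITGA2B and PF4) and none fell, beside 31.1% and 25.0% of all genes. The summed intensity of the 10 markers was 382 to 423 with DMSO and 1554 to 1669 with R406. Most of that sum was the adhesion molecule PECAM1, which monocytes express too (325 ± 18.2 and 1538 ± 68.1). The platelet glycoprotein GP9 was 11.7 ± 1.70 and 13.3 ± 0.92, and PF4 9.99 ± 0.86 and 11.7 ± 1.61, both near the gauge median. Their part in the CD36 result was not tested.

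CD68, a heavily glycosylated protein of lysosome and endosome membranes, was dim in all lines and rose in MOLM-14. The MOLM-14 arrays read 8.56, 8.35 and 8.07 with DMSO and 16.6, 13.9 and 19.1 with R406. The treatments did not overlap, and the log2 change was 0.90 ± 0.12 (adjusted p = 1.17e-06), or 0.42 with a pseudocount of 16 (adjusted p = 4.26e-06). In U937 the arrays read 8.18, 8.14 and 9.02 with DMSO and 9.90, 12.8 and 9.61 with R406. In HL-60 they read 10.8, 10.1 and 9.36 with DMSO and 16.4, 12.6 and 11.1 with R406. In both lines the R406 arrays all lay above the DMSO arrays without passing the test (0.31, adjusted p = 0.122, in U937 and 0.36, adjusted p = 0.0525, in HL-60). The HL-60 value passed under some other settings (0.47, adjusted p = 0.0183, without HL-60 R406 replicate 3). In KG-1 the arrays read 5.83, 4.75 and 6.01 with DMSO and 6.58, 5.80 and 6.39 with R406, which overlap (0.16, adjusted p = 0.349). The MOLM-14 change exceeded that of each other line (by 0.54 ± 0.17 against HL-60, adjusted p = 0.0135, 0.59 against U937 and 0.74 against KG-1). The other 3 lines did not differ from each other in the change. In DMSO cells, KG-1 was below the rest (by 0.52 ± 0.12 against MOLM-14), and the levels of HL-60, U937 and MOLM-14 could not be ordered beyond their spread.

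CD163, the receptor for haptoglobin-bound hemoglobin, and MSR1, the class A macrophage scavenger receptor, lay within or just below the range of the gauge genes on all 24 arrays. For CD163 the MOLM-14 arrays read 6.83, 6.96 and 6.33 with DMSO and 8.98, 11.6 and 6.12 with R406. The R406 arrays lay on both sides of the DMSO arrays. Another CD163 probe set read 5.65 to 6.03 with DMSO and 7.004 to 8.36 with R406 in MOLM-14, without overlap and with a difference of 0.32, and the remaining one had means of 5.20 and 5.13. The log2 change of the brightest probe set, 0.33 ± 0.13, passed the test (adjusted p = 0.0365), was 0.13 without MOLM-14 R406 replicate 2 (adjusted p = 0.353) and 0.55 without replicate 3 (adjusted p = 7.61e-05). The call was also lost without MOLM-14 R406 replicate 1 (adjusted p = 0.0910) or any MOLM-14 DMSO array (0.0529 to 0.107). With a pseudocount of 16 the change was 0.13, and over the mean of the probe sets 0.21, both past the test. It did not pass after quantile normalization (0.23), median centring (0.27), array weights (0.27) or a separate fit of the line (0.33). Over the other 18 arrays CD163 lay between 5.21 and 7.13, with changes of -0.04 in U937, 0.15 in HL-60 and 0.11 in KG-1 that did not pass. The test of a difference between lines gave an adjusted p of 0.371, and of 0.00585 without MOLM-14 R406 replicate 3.

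MSR1 read 6.38, 6.92 and 6.76 with DMSO and 5.32, 6.15 and 6.04 with R406 in MOLM-14. The R406 arrays all lay below the DMSO arrays, with a change of -0.17 ± 0.08 that missed the threshold (adjusted p = 0.0827). After median centring it was called lower (-0.22, adjusted p = 0.0285). The arrays of the other lines lay between 6.06 and 8.20 and overlapped between treatments, with changes of -0.0025 in U937, -0.03 in KG-1 and -0.06 in HL-60. No line or pair of lines passed a test for MSR1. A further MSR1 probe set in KG-1 had means of 6.61 and 8.45, a difference of 0.31. Another differed the same way there (5.70 and 6.42, a difference of 0.15), and the other two were lower with R406. In MOLM-14, 8 of the 23 gauge genes were themselves called higher, where 31.1% of all genes were. Their median change was 0.20 against 0.07 over all genes. The 3' minus 5' log2 difference of the ACTB control, a measure of RNA integrity, was 0.34 higher with R406 in MOLM-14 (exact permutation p = 0.1, the smallest that 3 against 3 arrays allow) and between -0.13 and 0.12 higher in the others. The part of the gauge gene shift or of RNA integrity in the MOLM-14 changes of dim genes was not tested.

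Around these scavenger receptors, genes of a list of other uptake receptors changed in every line, and the mannose receptor MRC1 was called in none. The list also holds LAMP1, LAMP2, LAMP3 and SCARB2, which are lysosomal membrane proteins. Of 16 measured, 5 rose in MOLM-14, namely LAMP1, LAMP2, SCARB2, AGER and MARCO, where 56.2% of all genes were called in either direction. The median change over the list was 0.23. The means of AGER (13.4 and 16.9) and MARCO (10.2 and 14.4) lay inside the gauge range. So did those of CLEC7A in KG-1 and of LAMP3 and COLEC12 in HL-60, called as given next. In KG-1 3 rose (LAMP2, CLEC7A, SCARB2) and 2 fell (SCARB1, STAB1), where 44.5% of all genes were called. In HL-60 LAMP3 rose and SCARB1, OLR1 and COLEC12 fell, where 15.2% were called, and in U937 SCARB1 fell, where 11.5% were called. SCARB1, the receptor for high-density lipoprotein, went from 88.3 ± 3.35 to 42.8 ± 0.82 in KG-1 (-1.03 ± 0.07) and by -0.44 and -0.49 in U937 and HL-60, and was 75.8 ± 3.39 and 74.5 ± 1.15 in MOLM-14. OLR1, a receptor for oxidised lipoprotein, fell in HL-60 from 21.6 ± 5.10 to 7.23 ± 0.59 (-1.43 ± 0.11, adjusted p = 3.37e-09), the line where CD36 also fell. Both OLR1 means lay inside the gauge range, so this is a difference of signals and not a measured fold of transcript. MRC1 lay between 5.39 and 6.37 in all group means.

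CD36 is a known target of the lipid-sensing receptors PPARG and LXR, and genes of that list changed in both directions. In MOLM-14, where CD36 rose, 5 of 15 rose (RXRA, ABCA1, CPT1A, ANGPTL4 and APOC1) and 3 fell (PLIN2, ACSL1 and SOAT1). In HL-60, where CD36 fell, RXRA and ACSL1 rose and LPL, LIPA and CPT1A fell. In KG-1 4 rose (ABCA1, NR1H3, CPT1A and LIPA) and 3 fell (ACSL1, LPL and SOAT1), and in U937 PPARG and PLIN2 rose. Beside these counts, 31.1% of all genes rose and 25.0% fell in MOLM-14, and 7.19% and 7.97% in HL-60. The shares were 23.6% and 20.9% in KG-1 and 6.12% and 5.43% in U937. PPARG was 6.31 ± 0.40 and 6.33 ± 0.51 in MOLM-14, inside the gauge range, and rose only in U937, from 74.3 ± 7.33 to 96.0 ± 6.67 (0.37, adjusted p = 0.0253). ABCA1, the cholesterol exporter, rose in MOLM-14 (0.98 ± 0.21) and KG-1 (1.92 ± 0.21, from 15.6 ± 3.24 to 61.2 ± 5.45). PLIN2, a lipid droplet coat protein, fell in MOLM-14 (-0.26, adjusted p = 0.0475) and rose in U937 (0.40, adjusted p = 0.0193).

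FCGR2A, the activating Fc receptor with its own ITAM, rose in every line. It was the only one of the 9 genes called higher in all 4 lines, which 1.05% of all genes were. The MOLM-14 arrays read 145, 130.5 and 155 with DMSO and 234, 215 and 225 with R406 (0.65 ± 0.13, adjusted p = 0.000113). The U937 arrays read 54.4, 55.8 and 59.7 with DMSO and 85.9, 82.3 and 86.0 with R406 (0.57, adjusted p = 0.00355). In neither line did the treatments overlap. The HL-60 arrays read 99.1, 99.9 and 90.9 with DMSO and 128, 135 and 127 with R406 (0.42, adjusted p = 0.0231). The KG-1 arrays read 48.4, 46.0 and 45.8 with DMSO and 92.0, 51.8 and 80.6 with R406 (0.63, adjusted p = 0.000207). All R406 arrays lay above all DMSO arrays here as well, with KG-1 R406 replicate 2 close to the DMSO arrays. Without that array the KG-1 change was 0.87. The HL-60 call was lost without HL-60 DMSO replicate 3 (0.38, adjusted p = 0.0914), without R406 replicate 1 (0.43, adjusted p = 0.0538) and without R406 replicate 2 (0.40, adjusted p = 0.0807). The test of a difference between lines gave an adjusted p of 0.672, and of 0.00729 without KG-1 R406 replicate 2. In DMSO cells MOLM-14 was highest, then HL-60, and U937 and KG-1 did not differ beyond their spread (0.27 ± 0.13, adjusted p = 0.0777).

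FCGR2B, the inhibitory receptor with an ITIM, rose in U937. Its arrays there read 38.9, 39.3 and 39.0 with DMSO and 67.0, 85.4 and 74.6 with R406. The groups were well apart, 1.94-fold in means, with a log2 change of 0.93 ± 0.14 (adjusted p = 0.000120). In MOLM-14, where it was most abundant, the arrays read 276, 256 and 278 with DMSO and 295, 270.0 and 275 with R406, which overlap (0.05, adjusted p = 0.780). In HL-60 they read 26.1, 21.4 and 14.5 with DMSO and 26.0, 26.5 and 24.3 with R406 (0.33, adjusted p = 0.134). The HL-60 treatments overlapped through DMSO replicate 1, and without it the change was 0.51 (adjusted p = 0.0140). In KG-1 they read 8.85, 10.0 and 9.30 with DMSO and 11.1, 8.66 and 7.39 with R406 (-0.06, adjusted p = 0.781). The U937 change exceeded that of MOLM-14 by 0.88 ± 0.20 (adjusted p = 0.000938) and that of KG-1 by 0.99, while its difference from HL-60 was 0.60 (adjusted p = 0.0790). In DMSO cells the signals of all lines differed, in the order MOLM-14, U937, HL-60, KG-1, of which HL-60 and KG-1 lay inside the gauge range. This probe set belongs to the class that can bind related transcripts, and the FCGR2C probe set, a close relative, had means of 62.1 ± 1.23 and 90.5 ± 4.27 in U937 (0.54, adjusted p = 0.0539), so the genes cannot be fully told apart.

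The balance of the activating and the inhibitory receptor was read within each array, where 3 against 3 arrays allow no two-sided exact permutation p below 0.1. On each array the log2 intensity of FCGR2A was set against that of FCGR2B, which shows a change in their difference but not a ratio of their levels. In MOLM-14 the difference read -0.92, -0.97 and -0.84 with DMSO and -0.33, -0.33 and -0.29 with R406. In U937 it read 0.47, 0.50 and 0.60 with DMSO and 0.35, -0.05 and 0.20 with R406. The R406 arrays thus lay above the DMSO arrays in MOLM-14 (by 0.59) and below them in U937 (a shift of -0.36). In HL-60 it read 1.89, 2.17 and 2.57 with DMSO and 2.26, 2.31 and 2.34 with R406. In KG-1 it read 2.33, 2.10 and 2.18 with DMSO and 2.94, 2.45 and 3.28 with R406, all above. HL-60 overlapped and shifted by 0.09 (exact permutation p = 0.7), and KG-1 shifted by 0.69. In these lines FCGR2B lay inside the gauge range, so the values there follow FCGR2A against a signal not shown above background and give no balance of the receptors. Each shift without overlap had that smallest exact p, which was 0.133 after adjustment over the 4 lines.

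**Figure D2:**
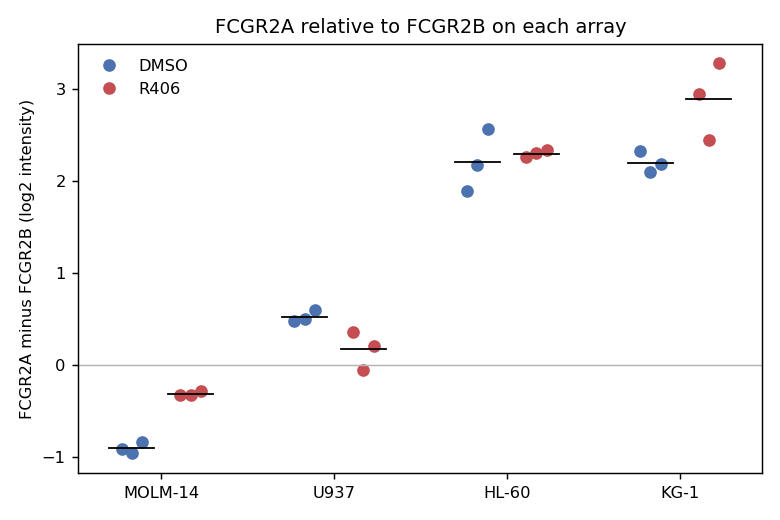
Log2 intensity of FCGR2A minus that of FCGR2B on each array (vertical axis) for DMSO and R406 in each line; points are arrays and bars are means of 3. The R406 points lie above the DMSO points in MOLM-14 and KG-1, below them in U937, and among them in HL-60; FCGR2B lay inside the gauge range in HL-60 and KG-1.

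Among other genes of Fc receptors and of ITAM signalling, more rose than fell in every line. Of 15 measured, 10 rose and 1 fell in KG-1 (median 0.46), 8 rose and 3 fell in MOLM-14 (median 0.39), 6 rose and 1 fell in HL-60 (median 0.21), and 5 rose and 1 fell in U937 (median 0.05). The medians over all genes were 0.02, 0.07, -0.003 and 0.003 in these lines. The shares of all genes that rose were 23.6%, 31.1%, 7.19% and 6.12% in the same order. Those that fell were 20.9%, 25.0%, 7.97% and 5.43%. The ITAM adaptor TYROBP rose in every line, from 134 ± 13.8 to 1001 ± 70.8 in MOLM-14 (2.90 ± 0.10, adjusted p = 9.22e-17) and by 1.63 in KG-1, 0.92 in U937 and 0.50 in HL-60. The Fc receptor gamma chain FCER1G was called higher in every line as well. Its change was 0.84 ± 0.12 in MOLM-14, 0.74 in HL-60, 0.70 in KG-1 and 0.38 in U937 (adjusted p = 0.0410 for the last). The MOLM-14 means of FCER1G (10.8 ± 2.48 and 19.98 ± 2.57) lay inside the gauge range, so the size there is one of signals. FCGR1A, the high-affinity IgG receptor, went the other way in 3 lines, from 29.0 ± 5.70 to 10.9 ± 2.07 in KG-1 (-1.32 ± 0.12), by -0.86 in HL-60 and by -0.56 in MOLM-14, and rose by 0.51 in U937. INPP5D, the phosphatase below FCGR2B, rose in KG-1 (1.05 ± 0.07), MOLM-14 (0.48) and HL-60 (0.32) and was 228 ± 3.58 and 232 ± 17.5 in U937, the line where FCGR2B rose. SYK itself, the kinase that R406 inhibits, fell in MOLM-14 (-0.25 ± 0.07), rose in KG-1 (0.39) and was not called in U937 (0.05) or HL-60 (-0.03).

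CHI3L1, a secreted chitinase-like glycoprotein made by macrophages and neutrophils, rose in both monocytic lines. The U937 arrays read 112, 103 and 112 with DMSO and 273, 267 and 269.8 with R406. These were far apart, 2.47-fold in means, with a log2 change of 1.30 ± 0.09 (adjusted p = 4.63e-09). The MOLM-14 arrays read 478, 661 and 616 with DMSO and 979, 828 and 849 with R406 (0.61 ± 0.09, adjusted p = 3.71e-06), also without overlap. In HL-60, the line with the highest level, the arrays read 1259.6, 1233 and 1291 with DMSO and 1426, 1264 and 1366 with R406, which overlap (0.10, adjusted p = 0.583). The KG-1 arrays lay between 4.71 and 5.14, below the gauge range, with a change of 0.02 (adjusted p = 0.921). The U937 change exceeded that of MOLM-14 by 0.69 ± 0.13 (adjusted p = 9.44e-05), and the MOLM-14 change exceeded those of HL-60 (by 0.51, adjusted p = 0.00199) and KG-1 (by 0.59). In DMSO cells each step of the order HL-60, MOLM-14, U937, KG-1 passed the test, the smallest being 1.12 ± 0.09 between HL-60 and MOLM-14. Another probe set had means of 79.5 and 183 in U937 and of 418 and 696 in MOLM-14, while the remaining one stayed between 7.30 and 8.26 in all groups. Of 4 relatives of CHI3L1, OVGP1 rose in MOLM-14 and no other call was made in any line. CHIT1, the macrophage chitinase, lay between 7.52 and 8.81 and CHI3L2 between 8.26 and 9.78 in all group means.

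GPNMB, a transmembrane glycoprotein of lysosomes and phagocytic cells and a known target of the transcription factors MITF and TFE3, rose in 3 lines. The U937 arrays, by far the brightest for this gene, read 1391, 1285 and 1313 with DMSO and 1864, 2033 and 2163 with R406 (0.60 ± 0.13, adjusted p = 0.00276). The MOLM-14 arrays read 10.7, 10.2 and 8.06 with DMSO and 32.8, 31.0 and 32.8 with R406. In both lines the treatments did not overlap, and in MOLM-14 the signal moved from within the gauge range to its upper edge (1.64 ± 0.13, adjusted p = 1.26e-10, or 0.91 with a pseudocount of 16). The KG-1 arrays read 21.8, 18.9 and 15.7 with DMSO and 27.1, 22.8 and 25.4 with R406 (0.41, adjusted p = 0.0106, or 0.24 with a pseudocount of 16). The HL-60 arrays read 21.3, 19.9 and 14.4 with DMSO and 12.8, 15.1 and 15.5 with R406 (-0.32, adjusted p = 0.0997). The KG-1 treatments did not overlap, and those of HL-60 overlapped through DMSO replicate 3. All arrays of both lines lay inside the gauge range, so their changes are differences of signals. Without KG-1 DMSO replicate 3 the KG-1 call was lost (0.29, adjusted p = 0.0896), and without HL-60 DMSO replicate 3 the gene was called lower in HL-60 (-0.48, adjusted p = 0.0101). The MOLM-14 change exceeded those of U937 (by 1.04 ± 0.18, adjusted p = 4.34e-05), KG-1 (by 1.24) and HL-60 (by 1.97), and HL-60 lay below U937 (by 0.92) and KG-1 (by 0.73). In DMSO cells only U937 lay above the gauge range, and no size is given for its difference in level. Among the signals inside it, HL-60 and KG-1 did not differ beyond their spread (-0.02 ± 0.13, adjusted p = 0.906) and MOLM-14 was below both.

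Lysosomal genes under MITF and its relatives rose in the lines where the GPNMB signal rose, and some rose in HL-60. The list of 19 measured genes also holds the factors MITF, TFEB, TFE3 and TFEC, and the counts include them. Of the 19, 17 rose in MOLM-14 (median 1.15), 13 in KG-1 (median 0.32) and 12 in U937 (median 0.40), with none lower. In HL-60 7 rose and 1, the factor TFEC, fell (median 0.12). Among all genes 31.1% rose in MOLM-14, 23.6% in KG-1, 6.12% in U937 and 7.19% in HL-60. Those lower were 25.0%, 20.9%, 5.43% and 7.97%. The aspartic protease CTSD rose in all 4 lines, from 29.3 ± 0.37 to 84.6 ± 10.3 in MOLM-14 (1.49 ± 0.09), by 0.65 in HL-60, 0.40 in U937 and 0.25 in KG-1 (adjusted p = 0.0230 for the last). MITF was called in MOLM-14 alone, from 62.8 ± 1.93 to 107 ± 11.97 (0.76 ± 0.12, adjusted p = 1.39e-05), and so was its relative TFEB, from 96.3 ± 10.5 to 230.3 ± 13.5 (1.25 ± 0.10, adjusted p = 3.92e-10). TFE3 rose in all 4 lines, by 1.65 ± 0.09 in MOLM-14, 0.67 in KG-1, 0.48 in HL-60 (adjusted p = 0.000343) and 0.34 in U937, so also in HL-60, where GPNMB did not rise. TFEC, another relative, rose in U937 (0.54) and fell in HL-60 (-0.54 ± 0.09, adjusted p = 0.000180). Whether these lists differ between lines was not tested.

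**Figure D3:**
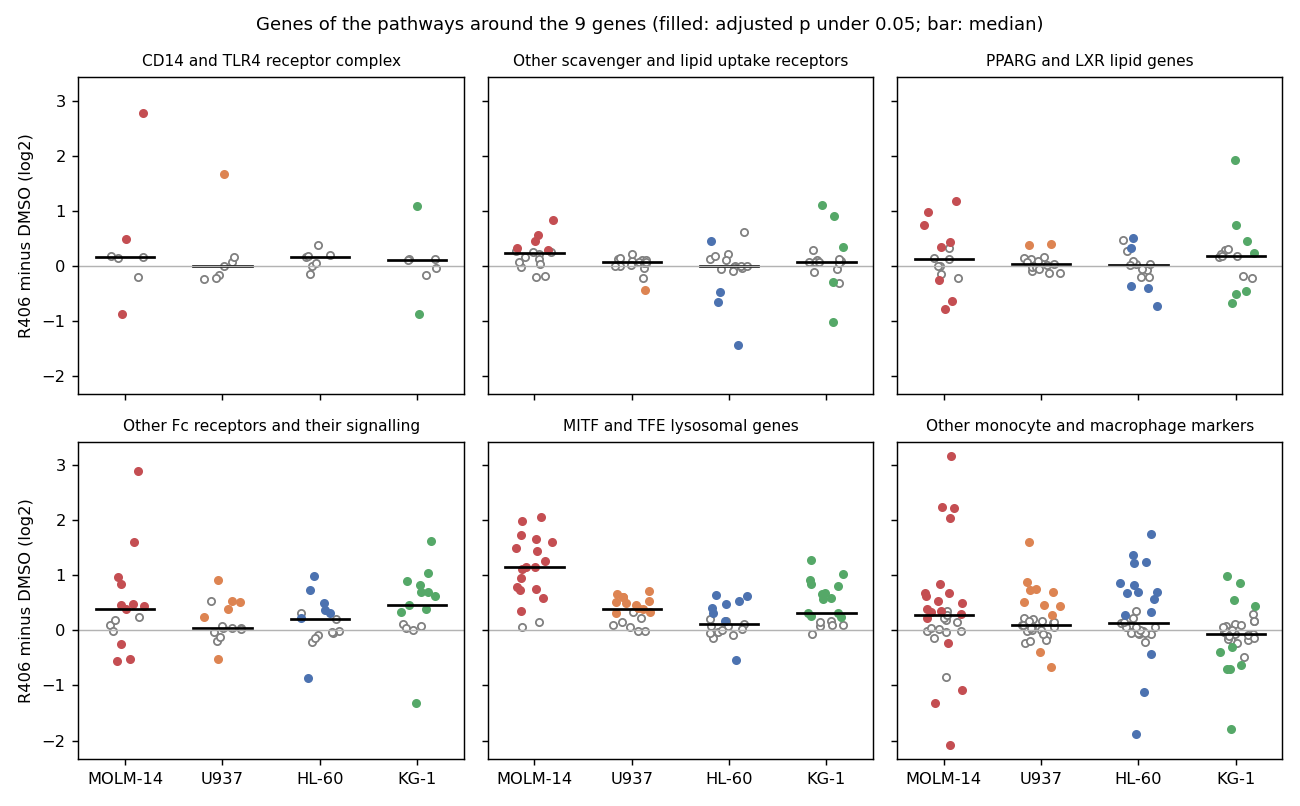
Log2 change, R406 minus DMSO, of the genes of 6 lists around the members in each line; each point is a gene, filled where adjusted p was under 0.05, and bars are list medians. The lysosomal list has its median at 1.15 in MOLM-14 and 0.12 in HL-60, and the PPARG and LXR list has points on both sides of 0 in every line.

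Over the 9 genes, more members rose than fell under R406 in MOLM-14, U937 and KG-1, while the HL-60 tally turned with 1 array. In MOLM-14 6 rose and none fell, beside 31.1% of all genes higher and 25.0% lower (56.2% in either direction). In U937 4 rose and none fell, beside 6.12% higher and 5.43% lower (11.5% in either). In HL-60 2 rose and 1 fell, beside 7.19% and 7.97% (15.2%), and in KG-1 2 rose and none fell, beside 23.6% and 20.9% (44.5%). Without HL-60 DMSO replicate 3, 1 member rose (CD14) and 2 fell (CD36 and GPNMB) in HL-60, and without KG-1 DMSO replicate 3, 1 rose in KG-1. The member medians were 0.61 in MOLM-14, 0.31 in U937, 0.15 in HL-60 and 0.16 in KG-1, and those of all genes 0.07, 0.003, -0.003 and 0.02. The KG-1 count was thus close to its background, and with 9 genes chosen when results were known the counts are descriptions. By arrays, 5 members in MOLM-14 had all R406 values above all DMSO values (31.6% of all genes), 5 in U937 (18.2%), 4 in HL-60 (15.9%) and 4 in KG-1 (26.6%). MSR1 in MOLM-14 (26.1%) and CD36 in HL-60 (16.9%) had all R406 values below.

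For the mean of the 4 lines, 7 members rose and none fell, where 29.1% of all genes rose and 24.0% fell (53.1% together). The largest mean changes were those of GPNMB (0.58 ± 0.06) and FCGR2A (0.57 ± 0.06), followed by CD36 (0.51), CHI3L1 (0.50), CD14 (0.48), CD68 (0.43) and FCGR2B (0.31). CD163 (0.14, adjusted p = 0.0816) and MSR1 (-0.06, adjusted p = 0.199) did not pass. CD163 did pass without MOLM-14 R406 replicate 3 (0.19, adjusted p = 0.00123) or without KG-1 DMSO replicate 2 (0.16, adjusted p = 0.0492). Of the members higher in the mean, CD14 was called in HL-60 alone, FCGR2B in U937 alone, CD68 in MOLM-14 alone and FCGR2A in all 4 lines. The R406 change differed between lines for 6 of the 9 genes (moderated F test), where 54.9% of all genes did: CD36 (adjusted p = 4.70e-12), CHI3L1 (2.89e-08), GPNMB (4.41e-08), CD14 (1.47e-07), FCGR2B (0.000786) and CD68 (0.00439). For pairs of lines the change differed for 5 members between MOLM-14 and U937 (43.8% of all genes), 5 between MOLM-14 and HL-60 (45.3%), 4 between MOLM-14 and KG-1 (33.5%), 4 between U937 and HL-60 (7.23%), 2 between U937 and KG-1 (33.3%) and 3 between HL-60 and KG-1 (35.7%). The 4 that separated U937 from HL-60, where few genes differ, were CD14, CD36, CHI3L1 and GPNMB.

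**Figure D4:**
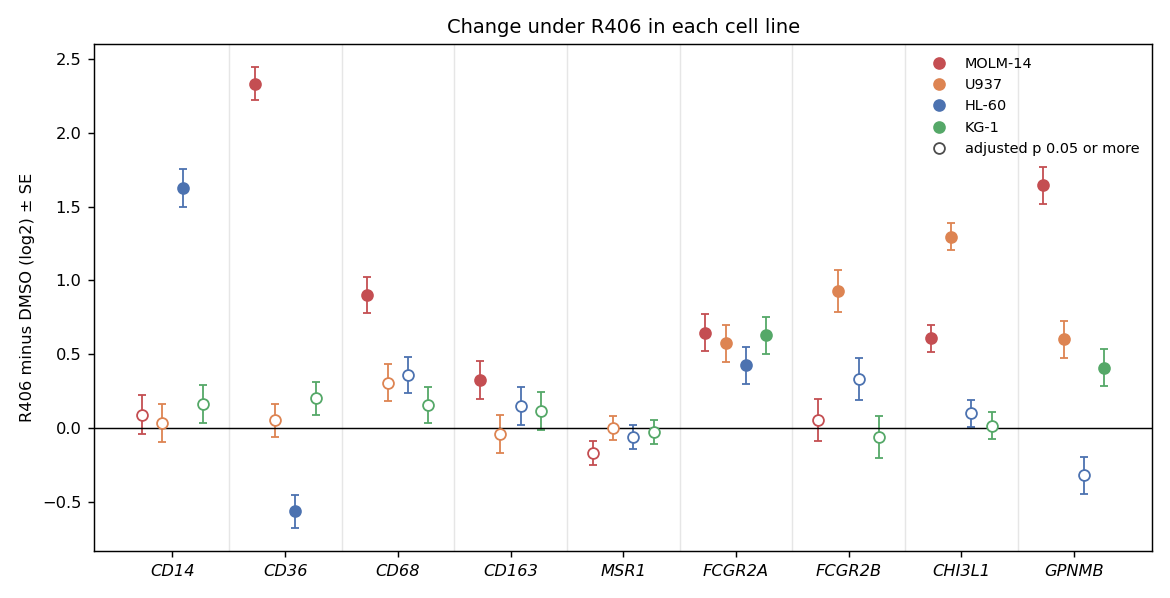
Log2 change, R406 minus DMSO, of each of the 9 genes in each line, ± SE from the model; filled points have adjusted p under 0.05. CD36 reaches 2.34 in MOLM-14 and -0.57 in HL-60, CD14 stands out in HL-60 (1.63), and the points of FCGR2A lie between 0.42 and 0.65.

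Other monocyte and macrophage markers moved in mixed directions. Of 31 measured, 15 rose and 4 fell in MOLM-14 (median 0.28), 12 rose and 3 fell in HL-60 (median 0.13), 9 rose and 2 fell in U937 (median 0.11), and 4 rose and 6 fell in KG-1 (median -0.06). Beside these and the counts below, 31.1% of all genes rose and 25.0% fell in MOLM-14, and 7.19% and 7.97% in HL-60. The shares were 6.12% and 5.43% in U937 and 23.6% and 20.9% in KG-1. CSF1R rose in MOLM-14, the line where CD36 and CD68 rose, from 17.1 ± 0.29 to 74.1 ± 11.1 (2.04 ± 0.11, adjusted p = 2.39e-13), and was not called elsewhere. Its DMSO mean there lay inside the gauge range, so this size is one of signals. The 4 markers that fell in MOLM-14 were SPP1 (-2.07), MNDA (-1.31), CCR2 (-1.07) and CD209 (-0.23). Of these, SPP1 and CD209 had both means inside the gauge range. ITGAM rose in HL-60 (0.71 ± 0.08), U937 (0.76) and MOLM-14 (0.51) and fell in KG-1, from 487 ± 20.5 to 139 ± 2.54 (-1.80 ± 0.08, adjusted p = 1.20e-13). MPO, a granule enzyme of earlier granulocytic cells, fell in MOLM-14 (-1.74 ± 0.15), rose in KG-1 (1.25) and was not called in HL-60 (-0.37, adjusted p = 0.117). Other granule genes did fall in HL-60, namely ELANE (-1.78 ± 0.18, adjusted p = 2.02e-07) and PRTN3 (-2.36 ± 0.18, adjusted p = 2.58e-09). Both fell in MOLM-14 as well (-1.05 and -3.21). Over the 17 granulocyte markers in HL-60, 5 rose and 4 fell. CD34, the progenitor marker, rose in KG-1 from 613 ± 103 to 999.7 ± 101 (0.71 ± 0.14, adjusted p = 0.000139). Progenitor markers rose in 6 of 10 cases in KG-1, with sums of 3987 to 4340 with DMSO and 7825 to 9193 with R406, and in 4 of 10 in MOLM-14, where CD38 fell. Of 6 B cell markers 1 rose in MOLM-14, namely CD79A. Of 8 T and NK cell markers NKG7 rose in MOLM-14 and KG-1 and fell in HL-60, GNLY rose in MOLM-14 and CD8A in KG-1. In these cultures a change in the share of cells and in RNA per cell cannot be told apart.

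Each member's pattern over the 8 group means was set beside that of every other gene whose group means spanned at least 1 on the log2 scale, 6097 in number for most members. The gene most like CD14 was TNFAIP6 (Pearson r = 0.998), followed by RASAL1 (0.998) and MGAM (0.996). For CHI3L1 it was CD4 (0.992), for GPNMB HDGFL3 (0.994), for FCGR2A GLIPR1 (0.992), for FCGR2B ANXA4 (0.990), for CD36 AGRN (0.989) and for CD68 STX12 (0.974). CD163 and MSR1 spanned 0.48 and 0.31 only, and their nearest genes are not given. Among the members themselves the highest r was that of CD68 and CHI3L1 (0.85) and CD14 had its highest with CHI3L1 (0.58). These correlations describe 8 points that share arrays and cell lines. The nearest genes were picked as the highest r of all candidates, so their r is high by selection. For CD14 it rests on the HL-60 groups, the only ones above the gauge range.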

How the data were processed

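Total RNA (Qiagen RNeasy Mini, biotin label) of 24 samples, 8 groups of 3, was hybridised to Affymetrix high-throughput U133 arrays of set A. The deposited values are intensities on a linear scale that the authors made with RMA, per the labels' processing notes. RMA normally corrects background, quantile-normalises and summarises each probe set, so signals of dim genes and folds are compressed. Aligner, build and detection calls are not given in the sources used here. The dose is in µM in the treatment protocol, as used here, and in mM in the design text.

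The table held 22277 probe sets. Left out were 62 control probe sets, 568 that listed more than 1 symbol and 1923 without a symbol, which left 12165 genes. No dim gene was removed. One limma model (limma 3.58.1, R 4.3.3, 16 residual degrees of freedom, pseudocount 1) gave R406 minus DMSO per line, the mean, the moderated F tests between lines and the 6 pairwise differences, with Benjamini-Hochberg adjustment over all genes. It was tested on simulated data. All 9 genes are named, together with list genes fixed by name and the genes most like each member over group means. Other list genes are named after their values were seen. The members and lists were chosen with earlier results of these data known. Alternatives were quantile normalization, median centring, a pseudocount of 16, the dimmest 33.3% of genes left out, averaged probe sets, separate fits per line, array weights, a replicate block and each array left out. Positions come from the promoter table (RefSeq, GRCh38.p14) alone.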

Additional observations from a re-analysis of the deposited data

Results flagged for a closer look

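The response to R406 differed between the cell lines for 6 of the 9 genes by the F test of the limma model, a share to be read beside the 54.9% of all genes for which it did. CD36 had an adjusted p of 4.70e-12, with changes of 2.34 in MOLM-14 and -0.57 in HL-60. CHI3L1 had 2.89e-08, with 1.30 in U937 and 0.10 in HL-60. GPNMB had 4.41e-08, with 1.64 in MOLM-14 and -0.32 in HL-60, and CD14 had 1.47e-07, with 1.63 in HL-60 and 0.03 in U937. FCGR2B had 0.000786, with 0.93 in U937 and 0.05 in MOLM-14. CD68 had 0.00439, with 0.90 in MOLM-14 and 0.16 in KG-1.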

How the results depend on the processing

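Under 32 alternatives, 24 of which left out 1 array, the calls of CD36 in MOLM-14 and HL-60, of CD14 in HL-60, of CHI3L1, FCGR2A and GPNMB in MOLM-14 and U937, of FCGR2B in U937 and of FCGR2A in KG-1 kept their direction and their side of the threshold. The filter on dim genes removed CD68, CD163 and MSR1. With quantile normalization or median centring 1 member (MSR1) was called lower in MOLM-14, and with median centring 1 (MSR1) in the mean. Median centring moved the U937 calls over all genes from 744 higher and 660 lower to 596 and 807. It turned the sign of uncalled changes of FCGR2B in MOLM-14 (-0.00049), CD14 in U937 (-0.0013) and CHI3L1 in KG-1 (-0.039). Averaged probe sets turned MSR1 in KG-1 (0.053), and array weights turned CD14 in U937 (-0.014) and CHI3L1 in KG-1 (-0.0046). The shift of FCGR2A against FCGR2B in MOLM-14 was 0.55 with a pseudocount of 16. With each array left out, members called higher ranged from 1 to 3 in HL-60 and from 1 to 2 in KG-1, members called lower in HL-60 from 1 to 2, and the FCGR2A against FCGR2B shift in HL-60 from -0.069 to 0.27. Uncalled changes that turned sign ranged from -0.027 to 0.20 (CD14, MOLM-14), -0.077 to 0.13 (CD14, U937), -0.075 to 0.16 (CD36, U937), -0.067 to 0.0040 (CD163, U937), -0.062 to 0.059 (MSR1, U937), -0.11 to 0.023 (MSR1, HL-60), -0.0058 to 0.046 (CHI3L1, KG-1), -0.087 to 0.020 (MSR1, KG-1) and -0.20 to 0.058 (FCGR2B, KG-1). The causes were not tested. Same-numbered arrays did not deviate together (12 correlations from -0.085 to 0.069, 6 of 12 best with their own number). The main model used no pairing, though this check cannot exclude that same-numbered samples were handled together. A replicate block added calls of CD68 in HL-60 (0.36, adjusted p = 0.0397) and CD36 in KG-1 (0.20, adjusted p = 0.0454).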
